A study of Saccharomyces cerevisiae with 8 samples.

Results

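In 107 of 1637 Xrn1-sensitive unstable transcripts (XUTs) of budding yeast, Saccharomyces cerevisiae, a late open reading frame (ORF) had the most ribosome footprints. It was the fourth or a later one counted from the 5′ end. This order stands in for place along the XUT, whose ends were not given, and ORFs that overlap count separately. The listed ORFs of each XUT were put in order from the 5′ end, and a XUT was taken if the ORF with the largest pooled read count over all conditions had order 4 or later and at least 20 pooled reads. XUTs on the 2-micron plasmid were left out, and so was XUT0957, which would otherwise have qualified. Of the 1634 XUTs off the plasmid, 1151 had at least 4 ORFs, and in 498 of these the most-read ORF had at least 20 pooled reads. The first ORF led in 256 of the 498 and ORF 2 or 3 in 134, and these classes serve as comparison. The read counts chose the 107 XUTs, so their read distribution is given as a description without a test.

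Ribosome profiling, which sequences the RNA pieces shielded by ribosomes, was done in 4 conditions. They were upf1 cells with cycloheximide (CHX, a blocker of translation elongation) for 15 min, upf1 cells without it, wild-type (WT) cells with CHX for 15 min, and WT cells without it. All cells were of strain BY4741 (MATa his3Δ1 leu2Δ0 met15Δ0 ura3Δ0), and the mutant also carried upf1*::kanMX4. Cultures were taken in YPD medium at mid-log phase (OD600 of 0.5, 30 °C). The labels give 2 biological replicates per condition, but the deposited table merges them into 1 value per ORF and condition, so no replicate error and no p-value can be given. Intervals are exact 95% intervals and cover counting error only. The mutation could not be checked in this table, which was analysed only for XUT ORFs.

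XUTs are long noncoding RNAs made by RNA polymerase II, many of them antisense to genes, and the cytoplasmic 5′ to 3′ exonuclease Xrn1 degrades them. A scanning ribosome enters at the cap and tends to start at the first suitable AUG, so ORFs near the 5′ end are usually the first to be met. Upf1 is a helicase needed for nonsense-mediated decay, which removes RNAs on which translation ends far from the 3′ end.

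The shortest of the leading ORFs show what was counted. The first set below holds the leading ORFs of up to 90 nt among the 14 most-read named XUTs, with the first ORF of 2 of these transcripts. Each line gives 6 bases before the start codon, the ORF and its stop codon, 5′ to 3′, with ATG and the stop codon in capitals. Positions are on build R64.
XUT1038 most-read ORF (chr4:233984-234025, minus strand): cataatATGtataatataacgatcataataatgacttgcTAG
XUT1038 first ORF (chr4:234381-234422, minus strand): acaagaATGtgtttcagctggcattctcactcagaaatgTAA
XUT1181 most-read ORF (chr6:263011-263103, minus strand): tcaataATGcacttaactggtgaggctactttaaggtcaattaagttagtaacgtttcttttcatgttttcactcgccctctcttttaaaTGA
XUT1181 first ORF (chr6:263500-263547, minus strand): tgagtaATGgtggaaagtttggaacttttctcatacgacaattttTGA
XUT1434 most-read ORF (chr11:271601-271699, minus strand): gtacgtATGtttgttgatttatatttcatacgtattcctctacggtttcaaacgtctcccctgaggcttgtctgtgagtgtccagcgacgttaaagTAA
XUT0430 most-read ORF (chr8:147225-147314, plus strand): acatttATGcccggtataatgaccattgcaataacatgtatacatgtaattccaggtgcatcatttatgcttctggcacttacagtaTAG
XUT0566 most-read ORF (chr11:19054-19119, plus strand): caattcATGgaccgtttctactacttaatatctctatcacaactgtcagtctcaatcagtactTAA

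A second set holds short leading ORFs that stand out below by their phase score or by a change between conditions, written in the same way.
XUT1281 most-read ORF (chr8:15853-15879, minus strand): tttctgATGttcactgattatagtTGA
XUT1281 first ORF (chr8:16252-16302, minus strand): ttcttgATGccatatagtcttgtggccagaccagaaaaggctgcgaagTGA
XUT0045 most-read ORF (chr2:341538-341567, plus strand): tttgagATGtttttctttactttgtttTAA
XUT1195 most-read ORF (chr7:74199-74228, minus strand): gcgcacATGaagacctattcgcttattTAA
XUT1195 first ORF (chr7:74567-74605, minus strand): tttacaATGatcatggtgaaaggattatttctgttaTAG
XUT0999 most-read ORF (chr2:791979-792035, minus strand): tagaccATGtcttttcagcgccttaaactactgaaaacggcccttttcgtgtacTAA
XUT0340 most-read ORF (chr7:309023-309094, plus strand): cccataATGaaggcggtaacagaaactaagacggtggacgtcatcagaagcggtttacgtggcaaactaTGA
XUT0688 most-read ORF (chr13:122889-122975, plus strand): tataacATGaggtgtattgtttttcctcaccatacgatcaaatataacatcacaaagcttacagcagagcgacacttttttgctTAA
XUT1177 most-read ORF (chr6:158932-159021, minus strand): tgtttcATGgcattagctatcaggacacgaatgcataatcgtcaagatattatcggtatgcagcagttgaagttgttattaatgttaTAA

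The 33-nt ORF of XUT1038 had 299 pooled reads, against 10 in the first ORF, which has the same length and the same base, A, 3 positions before ATG. In XUT1181 the leading ORF of 84 nt had 142 pooled reads, against 1 in the first ORF. The overlapping ORF 7 had 129 pooled reads, and it led in WT + CHX with 55 reads against 54. XUT1281 was led by an ORF of 18 nt with 104 pooled reads, the shortest of the 107, and its first ORF had 8. The first ORF of XUT1195 had no read, and its 21-nt leading ORF had 36.

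Over the 107 XUTs, the leading ORF had an order of 4 to 29 with a median of 7. It was the fourth ORF in 24 XUTs, the fifth in 15, and ORF 10 or later in 29. Only XUT1707 was led by its last listed ORF, number 24 of 24. The leading ORF began 38 to 2863 nt after the start of the first ORF, with a median of 462 nt. On a scale of 0 for the first ORF and 1 for the last, its median place was 0.375. These transcripts carried many ORFs, 6 to 50 with a median of 16, against medians of 10 where ORF 2 or 3 led and 9 where the first led. The part of the number of ORFs in being led by a late one was not tested.

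The leading ORFs were long for XUT ORFs, 18 to 4038 nt with a median of 126 nt. The medians were 94.5 nt where ORF 2 or 3 led, 75 nt where the first led, and 48 nt for the 9422 ORFs of order 4 or later. The leading ORF was also the longest of its transcript in 40 XUTs (37.4%), against 34.3% where ORF 2 or 3 led and 23.4% where the first led. The part of length in the choice was not tested beyond a count by density. By reads per nt the leading ORF still ranked first in 45 XUTs (42.1%), against 44.0% where ORF 2 or 3 led and 78.9% where the first led. The median density was 37.0 pooled reads per 100 nt in the leading ORFs and 8.33 in the first ORFs of the same transcripts. Where the first ORF led, its median density was 75.5 reads per 100 nt.

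Pooled reads of the leading ORF ran from 20 to 654 with a median of 43, whereas the first ORFs had 0 to 52 with a median of 6. The first ORF had no read in 17 XUTs and fewer than 10% as many as the leading ORF in 57, those 17 included. The top 10 leading ORFs held 3044 of the 8081 reads (37.7%), and XUT1452 alone held 654 (8.09%). At the edge of the choice, the 13 XUTs with 20 to 22 pooled reads had a median leading ORF length of 132 nt, as did the 11 with 17 to 19 reads that were left out. The 24 XUTs led by ORF 4 had a median of 43.5 reads and 127.5 nt, and the 39 led by ORF 3, left out by the rule, had 48 reads and 93 nt.

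**Figure D1:**
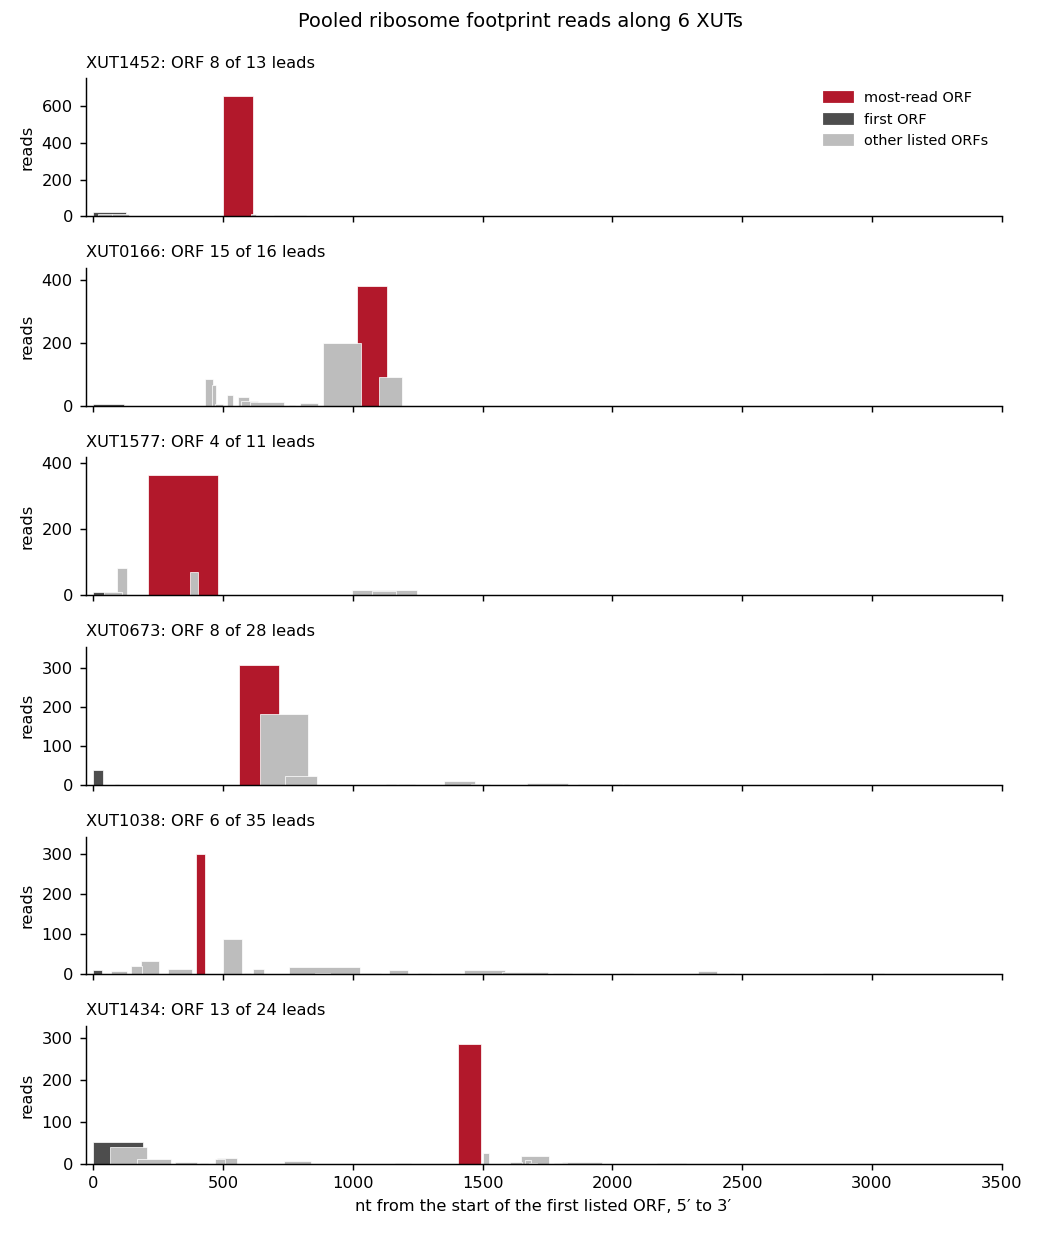
Pooled reads (y axis) of each listed ORF along the 6 most-read XUTs, by distance in nt from the start of the first listed ORF (x axis). Bar width is ORF length, red marks the most-read ORF, dark grey the first and light grey the others; overlapping bars may share reads. In XUT1452 nearly all reads sit in ORF 8, and in XUT1434 the tall bar begins 1404 nt from the start.

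XUT1452 had the most reads. Its leading ORF of 114 nt was the eighth of 13 and overlapped a Ty1 long terminal repeat (LTR) at chr11:513791-513904 on the minus strand, 631 nt before KAE1 on the same strand. GAP1, the general amino acid permease gene, lay 1158 nt away on the opposite strand. The ORF had 265 reads in upf1 + CHX, 106 in upf1, 246 in WT + CHX and 37 in WT, and 92.5% to 96.4% of its transcript's reads in each condition. The first ORF had 10, 3, 9 and 3 reads in the same order. The leading ORF was thus far above the first in every condition.

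XUT0166, near LYS14, the gene of an activator of lysine synthesis, was also led by a 114-nt ORF overlapping a Ty1 LTR, ORF 15 of 16 at chr4:513156-513269 on the plus strand. It had 136 reads in upf1 + CHX, 105 in upf1, 106 in WT + CHX and 34 in WT, and the first ORF had 4 in all. Its neighbour, ORF 14, overlapped it and had 200 pooled reads. Compared position by position, the leading ORFs of XUT1452 and XUT0166 agreed at 32 of 114 positions. Such a comparison cannot show whether they share LTR sequence at shifted positions. No 28-nt window of either was found a second time in the genome.

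XUT1577 ran opposite FPY1 and was led by ORF 4 of 11, 270 nt long at chr13:619102-619371 on the minus strand. This ORF had 141 reads in upf1 + CHX, 94 in upf1, 103 in WT + CHX and 23 in WT. XUT0673, opposite VPS33, a gene for a protein of vacuolar membrane fusion, was led by ORF 8 of 28 (chr12:910251-910406, plus strand). It had 110 reads in upf1 + CHX, 97 in upf1, 97 in WT + CHX and 3 in WT, and the overlapping ORF 9 had 181 pooled reads.

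The 33-nt ORF of XUT1038, sixth of 35, lay outside any coding sequence (CDS), 99 nt before the transcript would meet VCX1, which encodes a vacuolar calcium exchanger, on the opposite strand. It had 172 reads in upf1 + CHX, 45 in upf1, 79 in WT + CHX and 3 in WT. Its density of 906 pooled reads per 100 nt was the highest of the 107. XUT1434, near CUE2, the gene of an endonuclease of no-go decay, was led by ORF 13 of 24, with 131 reads in upf1 + CHX, 61 in upf1, 89 in WT + CHX and 1 in WT. In these 2 XUTs the CHX libraries of each strain were higher than those without CHX, in raw reads, and the WT library held few reads. Raw reads over all XUT ORFs off the plasmid were also higher with CHX, 31632 against 17827 in upf1 and 25565 against 3333 in WT.

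Of the next 6 by reads, 3 ran opposite a gene: XUT0147 with 207 pooled reads (MRK1, a kinase gene of the GSK-3 family), XUT1750 with 202 (YPL216W) and XUT0815 with 158 (RSB1, a gene for a sphingoid base transporter). The other 3 were led by short ORFs outside any CDS. They were XUT0279 with 189 pooled reads, 387 nt before RPL34A, a ribosomal protein gene on the opposite strand, XUT0430 with 151, 559 nt before RPS27B, another such gene, and XUT0566 with 151, near SRY1. XUT0815 had 60 reads in upf1 + CHX, 77 in upf1, 15 in WT + CHX and 6 in WT. This leading ORF had 57.9 pooled reads per 100 nt, against 110 in the first ORF.

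**Figure D2:**
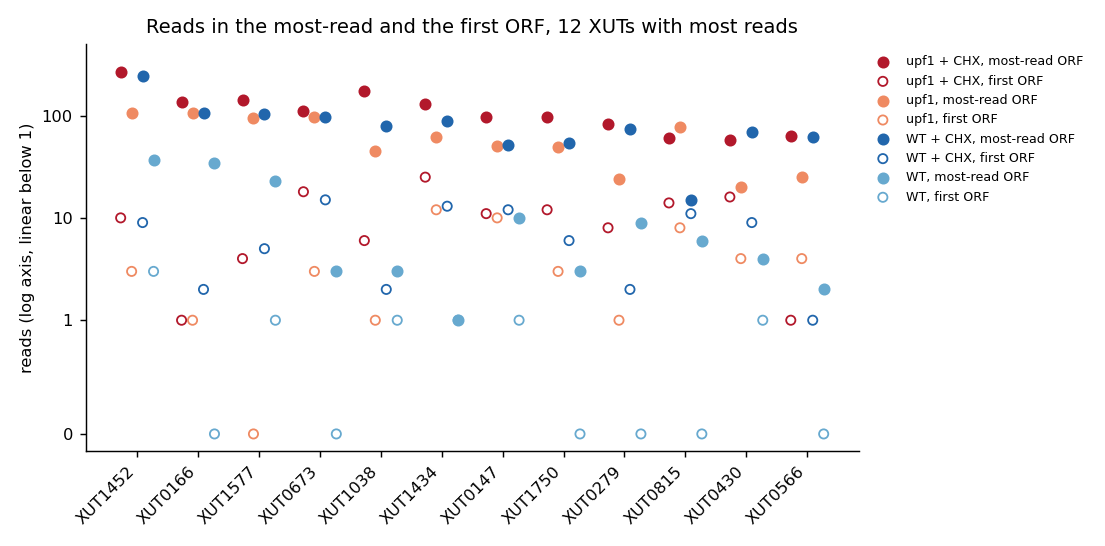
Reads (y axis, log scale, linear below 1) in the most-read ORF (filled) and the first ORF (open) of the 12 XUTs with most reads, in upf1 + CHX, upf1, WT + CHX and WT. The filled points lie above the open ones of the same condition except in WT for XUT1434, where both ORFs had 1 read.

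For 102 of the 107 leading ORFs the deposited pooled count equalled its 4 conditions added up. It differed by up to 13 reads in the table, the difference seen in XUT1281, whose conditions held 50, 13, 28 and 0 reads against a pooled 104.

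The surroundings of the leading ORFs were counted in the RefSeq annotation of R64. Of the 107, 50 (46.7%) lay opposite an annotated CDS or pseudogene and 57 (53.3%) outside any annotated CDS, and none overlapped an annotated one on its own strand. Where the first ORF led, 41.0% lay opposite a CDS. A CDS on the same strand began within 300 nt downstream of 1 leading ORF, in XUT0316 before HXT10, a hexose transporter gene. One ended within 300 nt upstream of 1 other, in XUT0081 after MAL32, a maltase gene. In 6 cases the leading ORF overlapped an LTR or Ty element (5.61%, against 1.56% where the first ORF led), namely in XUT1452, XUT0166, XUT1639, XUT1240, XUT1138 and XUT1270. The 4038-nt ORF of XUT1639 lay in YNLCTy2-1 and the 1047-nt ORF of XUT1240 in YGRCTy2-1, both Ty2 retrotransposons. With no CDS annotated under either ORF, both count among the 57. Whether they are coding frames of Ty2 itself was not checked. In these, 97.2% and 97.3% of the 28-nt windows were found again elsewhere in the genome. At least 50% of the windows were repeated in 5 leading ORFs, in XUT1639, XUT1240, XUT0081, XUT1270 and XUT1225. How reads that fit several places were counted is not given in the sources used here, so the reads of these 5 cannot be told apart from reads of other copies.

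Start and stop contexts were read from the genome. An A stood 3 bases before ATG in 33 of 107 (30.8%, 22.3 to 40.5), in 33.6% of the first ORFs of the same transcripts, and in 29.0% of all 13912 ORFs off the plasmid. Where the first ORF led, the share was 38.7% (32.7 to 44.9). The stop codon was TAA in 47.7% (37.9 to 57.5) of the 107 and in 39.2% of all ORFs. Median GC content was 37.4% in the leading ORFs and 39.4% in all ORFs.

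Reads per transcript were summed over ORFs that do not overlap each other, taken from the most-read down. The leading ORF held 11.9% to 97.5% of its transcript's pooled reads, with a median of 56.7%, at least 50% in 67 XUTs and at least 90% in 5. The medians were 64.8% where ORF 2 or 3 led and 79.1% where the first led. The 5 were XUT1452, XUT1639, XUT0272 (2 nt beyond MIG3, a transcription regulator gene), XUT1462 (near PCC1, a gene of the KEOPS complex) and XUT0654 (opposite YLR179C). In 45 XUTs the second most-read ORF overlapped the leading one, and in 36 it came within 1.5-fold of it.

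By condition, the 107 leading ORFs held 3345 of 5909 reads of their transcripts in upf1 + CHX (56.6%, 55.3 to 57.9), 1756 of 3651 in upf1 (48.1%, 46.5 to 49.7), 2627 of 4692 in WT + CHX (56.0%, 54.6 to 57.4) and 330 of 594 in WT (55.6%, 51.5 to 59.6). Over the pooled reads of the 107 XUTs the share was lowest in upf1, whose counting interval met none of the other 3. The median over XUTs with at least 10 reads was instead lowest in WT, at 44.4% over 14 XUTs, against 51.0% over 80 in upf1. It was 60.2% in upf1 + CHX and 56.3% in WT + CHX. ORFs after the leading one held 16.8% in upf1 + CHX, 27.0% in upf1, 17% in WT + CHX and 20.2% in WT. ORFs before it held 26.6%, 24.9%, 27.0% and 24.2% in the same order. The lower pooled share in upf1 thus went with a larger share of reads 3′ of the leading ORF. Of the 985 upf1 reads there, XUT1612 held 96, XUT0999 87, XUT0815 66, XUT1038 65 and XUT1417 65. Where the first ORF led, its share was 77.6% in upf1 + CHX, 71.4% in upf1, 75.7% in WT + CHX and 72.9% in WT, and where ORF 2 or 3 led it was 64.8%, 60.9%, 62.6% and 59.6%. ORFs after the leading one held 22.4%, 28.6%, 24.3% and 27.1% where the first led. Where ORF 2 or 3 led they held 22.6%, 30.5%, 25.5% and 33.6%. In upf1 this was more than with CHX in both classes, and more than in WT only where the first led.

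These shares come from the reads that chose the ORFs. When the XUTs and their leading ORFs were chosen by the same rule from the other 3 conditions and read in the condition left out, the share was 55.5% (54.2 to 56.9, 72 XUTs) in upf1 + CHX, 53.1% (51.2 to 54.9, 87 XUTs) in upf1, 54.7% (53.2 to 56.2, 79 XUTs) in WT + CHX and 54.9% (50.8 to 59.0, 104 XUTs) in WT. Chosen in this way, upf1 was still lowest, but its counting interval overlapped each of the other 3. The values come from different sets of XUTs, so their order does not reflect the condition alone. The ORF so chosen led again in 60 of 71 XUTs with at least 10 reads in upf1 + CHX, 55 of 65 in upf1, 60 of 79 in WT + CHX and 10 of 15 in WT. Where the first ORF was so chosen, it led again in 166 of 173, 135 of 159, 177 of 185 and 17 of 23.

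The leading share was also followed within single transcripts that had 20 or more reads in each condition of a pair. It was higher in upf1 + CHX than in upf1 in 27 of 45 XUTs and lower in 18, with a median difference of 3.04 percentage points. The median differences were 2.90 points where ORF 2 or 3 led and 3.04 where the first led. Between upf1 + CHX and WT + CHX the share was higher in 38 of 65 XUTs and lower in 27, with a median difference of 1.20 points. Only 5 XUTs had 20 reads in both upf1 and WT, and the share was higher in upf1 in 4 of them, with a median difference of 5.17 points.

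**Figure D3:**
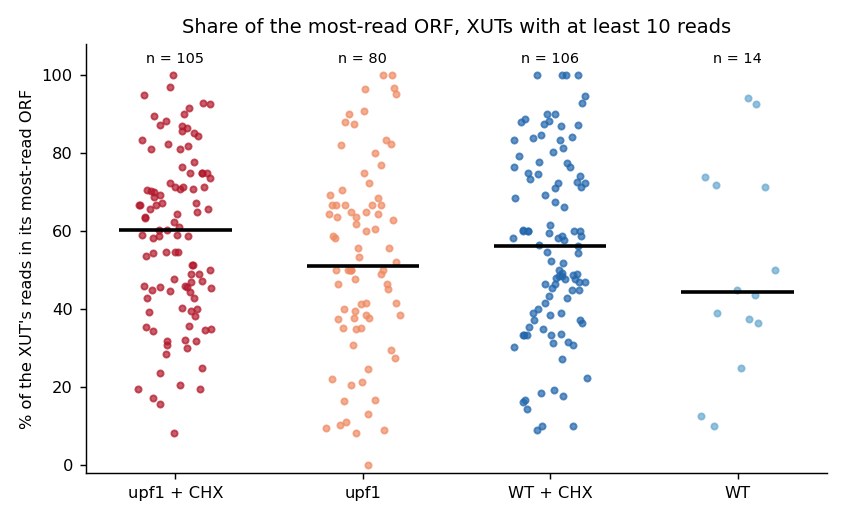
Percentage of a XUT's reads in its most-read ORF (y axis) in upf1 + CHX, upf1, WT + CHX and WT. Each point is 1 of the XUTs with at least 10 reads in that condition (n above each column) and bars are medians, 60.2%, 51.0%, 56.3% and 44.4% from left to right; the spread over XUTs is wide in every condition.

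The same ORF led in each condition for most transcripts with at least 10 reads there. Part of this is built in, since the pooled counts that chose the ORF include that condition. It led in 96 of 105 XUTs in upf1 + CHX (91.4%), 69 of 80 in upf1 (86.25%), 87 of 106 in WT + CHX (82.1%) and 10 of 14 in WT (71.4%). Some ORF of order 4 or later led in 98, 78, 96 and 14 of them, and the first ORF in 2, 1, 5 and 0. In XUT0842, for example, ORF 14 had 30 reads in upf1 + CHX, 12 in upf1, 60 in WT + CHX and 4 in WT, whereas ORF 9 had 42, 27, 33 and 4. There a different late ORF led in upf1 cells with and without CHX than in WT + CHX. No read fell in 2 of the leading ORFs in upf1 and in 28 of them in WT, where the 107 XUTs held 594 reads in all.

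The 107 XUTs together held 18.7% (18.3 to 19.1) of the reads in XUT ORFs off the plasmid in upf1 + CHX, 20.5% (19.9 to 21.1) in upf1, 18.4% (17.9 to 18.8) in WT + CHX and 17.8% (16.5 to 19.2) in WT. The totals were 31632, 17827, 25565 and 3333 reads in the same order. They cover only XUT ORFs and say nothing of library depth, so changes between conditions are ratios of shares of these totals. A share was called changed at 2-fold or more, for XUTs with at least 10 reads in either condition and with counts under 3 raised to 3. With 1 value per condition, such a call is a size and not a test. The highest and lowest ratios given in full are those of XUTs with at least 4 reads in both conditions, and higher ones that rest on fewer reads are named apart.

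For upf1 against WT, 13 of 80 XUTs were at least 2-fold higher (16.25%) and 6 at least 2-fold lower (7.5%), while 13.2% and 8.31% of all XUTs passed. The median log2 ratio was -0.05, against -0.0041 for all XUTs. It depended on the read minimum, since with 20 reads 13 of 45 XUTs were higher and 2 lower with a median of 0.64, beside 23.3% and 7.33% of all XUTs and a median of 0.46. XUT1612, opposite YTP1, held 191 upf1 reads against 6 WT reads, a share 5.95-fold higher (2.69 to 16.4). XUT1750 had 98 upf1 reads against 6 WT reads, 3.05-fold higher (1.35 to 8.52), and XUT0566 had 65 against 4, 3.04-fold higher (1.13 to 11.5). XUT1417, opposite JEN1, the lactate permease gene, had 108 in upf1 against 8 in WT, 2.52-fold higher (1.24 to 6.0). On 3 WT reads each, XUT0673 was 6.92-fold higher (2.31 to 34.0) and XUT1434 was 6.05-fold higher (2.01 to 29.8), and XUT1181 was 4.21-fold higher (1.1 to 35.8) on 2. At the low end, XUT0272 held 11 upf1 reads against 8 WT reads, a ratio of 0.257 (0.0942 to 0.736), and XUT0279 had 37 against 20, a ratio of 0.346 (0.196 to 0.629). XUT1162, opposite the helicase gene ECM32, and XUT0955, opposite YBL029W, both had a ratio of 0.374, and their intervals reached above 1. With the 10-read minimum the counts of called XUTs were close to the background in both directions. Where ORF 2 or 3 led, 13.9% were higher and 7.92% lower, and where the first led 15.6% and 5.39%.

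For upf1 + CHX against WT + CHX, 3 of 107 were higher (2.80%) and 6 lower (5.61%), beside 6.73% and 8.48% of all XUTs. Where ORF 2 or 3 led, 7.58% were higher and 2.27% lower, and where the first led 7.2% and 5.2%. XUT0340, opposite VPS73, had 69 reads in upf1 + CHX against 12 in WT + CHX, a 4.65-fold higher share (2.50 to 9.43). Its leading ORF had 22 reads in upf1 + CHX, 20 in upf1, 2 in WT + CHX and 3 in WT. XUT1612 was 2.11-fold higher (1.44 to 3.15), with 99 reads in upf1 + CHX against 38 in WT + CHX. XUT0570 had 12 against 4 reads, too few to set its ratio of 2.42 apart from 1 (0.735 to 10.3). At the low end, XUT0069, opposite MSI1, a gene of the chromatin assembly factor, had 8 reads in upf1 + CHX against 17 in WT + CHX, a ratio of 0.380 (0.142 to 0.93). XUT1688 had 12 against 23 reads, a ratio of 0.422 (0.191 to 0.883). The intervals of XUT0654 and XUT1138, at 0.475 and 0.485, reached above 1.

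For WT + CHX against WT, 15 of 106 XUTs were higher (14.2%) and 22 lower (20.8%), beside 7.98% and 19.9% of all XUTs. Where ORF 2 or 3 led, 8.20% were higher and 10.7% lower, and where the first led 8.82% and 13.45%. In 4 of the 22, XUT0480, XUT1782, XUT0127 and XUT0497, the share was not lower as counted (10 or 11 reads in WT + CHX against 0 or 1 in WT), and the call came only from raising the WT count to 3. Without such calls 18 were lower (17%), beside 12.1% of all XUTs. The excess of lower calls was lost at 20 reads, with 15 higher and 4 lower of 71 (13.2% and 7.03% of all XUTs), and with the plasmid in the totals, with 20 higher and 10 lower (13.7% and 7.17% of all XUTs).

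The highest ratios rested on 3 WT reads or fewer. XUT1181 had 108 reads in WT + CHX against 2 in WT, a 7.04-fold higher share (1.90 to 58.9), XUT1434 had 132 against 3, 5.74-fold higher (1.92 to 28.2), and XUT0673 had 127 against 3, 5.52-fold higher (1.85 to 27.1). XUT0688 had 69 reads in WT + CHX and none in WT, at least 3.0-fold higher with the WT count set to 3. Of those with at least 4 reads in both, the highest were XUT0282, opposite ICL1, the isocitrate lyase gene, with 79 reads in WT + CHX against 4 in WT, a 2.57-fold higher share (0.967 to 9.68), and XUT0566 with 75 against 4, 2.44-fold higher (0.916 to 9.21). Both intervals included 1. XUT1639, in the Ty2 element, had 13 reads in WT + CHX against 17 in WT, a ratio of 0.0997 (0.0445 to 0.218). XUT0272 had 12 against 8 reads, a ratio of 0.196 (0.0735 to 0.552), and XUT1304, opposite the meiotic regulator gene NDT80, had 17 against 9, a ratio of 0.246 (0.104 to 0.627). XUT1162 was also among the 4 lowest, with 10 reads in WT + CHX against 6 in WT.

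For upf1 + CHX against upf1, 17 of 105 XUTs were higher (16.2%) and 10 lower (9.52%), beside 24.4% and 9.86% of all XUTs, and the median log2 ratio was 0.17 against 0.34 for all XUTs. Where ORF 2 or 3 led, 12.9% were higher and 9.85% lower, and where the first led 25.7% and 7.23%. XUT0688, whose leading ORF lay 254 nt before the ribosomal protein gene RPL6A, had 56 reads in upf1 + CHX against 5 in upf1, a 6.31-fold higher share (2.55 to 20.2). XUT0156, opposite GPR1, a glucose receptor gene, had 51 against 5 reads, 5.75-fold higher (2.31 to 18.5). On fewer upf1 reads, XUT1195 was 10.1-fold higher (18 reads against 1, 1.60 to 423) and XUT1228 was 6.20-fold higher (22 against 2, 1.52 to 54.4). The leading ORF of XUT0156 was number 29 of 46, began 2781 nt from the first, and had 45 reads in upf1 + CHX, 4 in upf1, 22 in WT + CHX and 0 in WT. XUT1639 was lower, with 32 reads in upf1 + CHX against 93 in upf1, a ratio of 0.194 (0.125 to 0.293). XUT0467, beside CSS1, had 39 against 78 reads (ratio 0.282), XUT1612 had 99 against 191 (0.292), and XUT0961, opposite PDR3, a multidrug resistance regulator gene, had 131 against 219 (0.337). XUT1639 was thus low with CHX in both strains, and its reads cannot be told apart from those of other Ty2 copies.

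**Figure D4:**
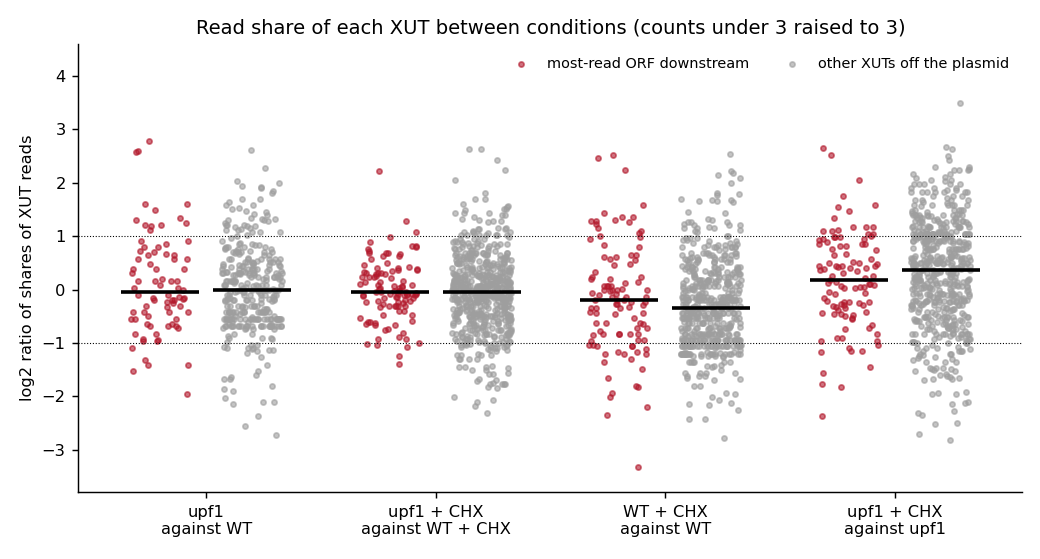
Log2 ratio of the share of XUT reads (y axis) in 4 comparisons, for the 107 XUTs whose most-read ORF is downstream (red, left) and the other XUTs off the plasmid (grey, right), with at least 10 reads in either condition. Each point is a XUT, thick bars are medians and dotted lines mark 2-fold; the red and grey points cover much the same range in each comparison.

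The comparisons share conditions with one another, so a XUT with few reads in 1 condition can be called in more than one. XUT1612 was high in upf1 in both comparisons that hold it, and its leading ORF had 17 reads in upf1 + CHX, 42 in upf1, 7 in WT + CHX and 1 in WT. That ORF held 19.9% of the transcript's pooled reads, with 20.1 per 100 nt against 157 in the first ORF. In XUT0961 the leading ORF held 20.1%, with 40.9 per 100 nt against 248 in the first ORF.

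Each ORF also carries a phase score from 0 to 1. The deposited table gives no formula for it, and it is taken here as a measure of how far reads keep to 1 codon position. The score played no part in choosing the XUTs. With at least 10 reads in the condition, the leading ORF scored at least 0.32 in 57 of 89 XUTs in upf1 + CHX (64%, 53.2 to 73.9), 28 of 51 in upf1 (54.9%, 40.3 to 68.9), 42 of 77 in WT + CHX (54.5%, 42.8 to 65.9) and 3 of 6 in WT. Of all ORFs off the plasmid with at least 10 reads there, 72.6%, 62.5%, 64.2% and 68.1% scored as high in the same conditions. Read counts above that minimum were not matched. The called share of the leading ORFs was below that of all ORFs in each condition, and each counting interval included the share of all ORFs. Median scores were 0.378 in upf1 + CHX, 0.354 in upf1, 0.328 in WT + CHX and 0.265 in WT, against 0.435, 0.378, 0.385 and 0.391 for all ORFs. Where the first ORF led, the medians were 0.441, 0.385, 0.384 and 0.412. With 10 reads in all of upf1 + CHX, upf1 and WT + CHX, 42 leading ORFs could be followed, of which 11 were called in 3 conditions, 13 in 2, 13 in 1 and 5 in none.

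The called share differed more by overlap in WT + CHX than in the upf1 conditions, but on few ORFs. In WT + CHX, 13 of 18 leading ORFs that overlap no other listed ORF were called (72.2%, 46.5 to 90.3). Of those that overlap one, 29 of 59 were called (49.2%, 35.9 to 62.5), so the intervals overlapped. The counts were 15 of 23 and 42 of 66 in upf1 + CHX (65.2% and 63.6%) and 8 of 14 and 20 of 37 in upf1 (57.1% and 54.1%). Median scores without and with overlap were 0.399 and 0.312 in WT + CHX, 0.385 and 0.375 in upf1 + CHX, and 0.439 and 0.333 in upf1. Leading ORFs of up to 90 nt were called in 21 of 28 XUTs in upf1 + CHX, 10 of 15 in upf1 and 13 of 22 in WT + CHX, and those over 150 nt in 20 of 34, 11 of 21 and 13 of 26. Since 79 of the 107 leading ORFs (73.8%) overlap another ORF, their score can include reads of another frame, and the part of overlap in the lower scores was not tested.

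Some leading ORFs scored high where they had at least 20 reads. XUT1177, led by ORF 13 of 25, scored 0.678 in upf1 + CHX with 25 reads. The 21-nt ORF of XUT0045 scored 0.654 in upf1 + CHX with 25 reads and 0.520 in WT + CHX with 21. XUT1181 scored 0.809 in upf1 with 22 reads, 0.458 in upf1 + CHX with 64 and 0.174 in WT + CHX with 54. Its leading ORF overlaps the nearly as much read ORF 7. The leading ORF of XUT1195 scored 0.698 in WT + CHX with 20 reads. XUT0999, near SUL1, a sulfate permease gene, scored 0.632 in upf1 + CHX with 37 reads. Others scored low with as many reads. XUT0469 scored 0.0535 in upf1 + CHX with 49 reads, and XUT0156 scored 0.0774 with 45 there and 0.0625 in WT + CHX with 22. XUT1612 scored 0.0415 in upf1 with 42 reads. The most-read ORF of all, in XUT1452, stayed between 0.371 and 0.485 in the 4 conditions, whereas XUT0166 scored 0.122 to 0.312.

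**Figure D5:**
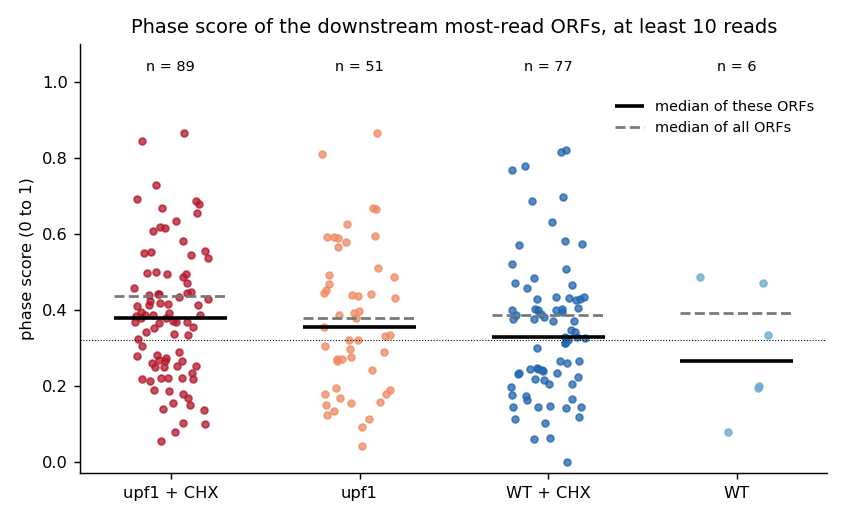
Phase score (y axis) of the most-read ORF in each condition, for XUTs in which that ORF has at least 10 reads (n above each column). Points are XUTs and black bars their medians. Dashed grey bars are the median of all XUT ORFs off the plasmid with the same read minimum, and the dotted line marks 0.32. The black bar lies below the grey one in each condition.

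Between conditions, a score difference of 0.2 or more was counted for ORFs with at least 10 reads in both. For upf1 + CHX against WT + CHX, the score was higher in 14 and lower in 5 of 67 leading ORFs, beside 22.0% and 12.9% of all ORFs, and the median difference was 0.074 against 0.047 for all ORFs. XUT0387, opposite PBP1, which encodes a partner of the poly(A)-binding protein, scored 0.581 in upf1 + CHX with 27 reads and 0 in WT + CHX with 24. The 18-nt ORF of XUT1281 went the other way, 0.251 in upf1 + CHX and 0.582 in WT + CHX. XUT1038 scored 0.412 in upf1 + CHX and 0.164 in WT + CHX.

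For upf1 + CHX against upf1, 8 of 50 leading ORFs were higher and 9 lower, beside 18.6% of all ORFs in each direction. XUT1181 was among the lower, with 0.458 in upf1 + CHX against 0.809 in upf1. For upf1 against WT, 1 of 6 was higher, XUT1577 (0.319 against 0.0769), and 1 lower, XUT1639 (0.133 against 0.469), beside 10.9% and 21.7% of all ORFs. For WT + CHX against WT, the same 2 XUTs were the ones past 0.2, XUT1577 higher (0.340 against 0.0769) and XUT1639 lower (0.204 against 0.469), beside 6.38% and 23.4% of all ORFs. These 2 comparisons share the WT library.

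XUT0957, kept out by the rule, is shown for scale only. Its ORF 4 of 8, 234 nt long at chr2:169637-169870, had 315 reads in upf1 + CHX, 208 in upf1, 273 in WT + CHX and 144 in WT, or 940 pooled reads. That XUT held 1.06% of all XUT reads in upf1 + CHX, 1.23% in upf1, 1.14% in WT + CHX and 4.44% in WT.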

How the data were processed

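Ribosome-protected RNA was sequenced from 8 libraries, 2 per condition. The submitters' processing notes name build R64 and the tools cutadapt, HISAT2 2.2.0 and UMI-tools. The authors deposited 1 table with a read count and a phase score per XUT ORF and condition, replicates merged, plus pooled values. Deposited counts were whole numbers not scaled to depth, and deposited scores were a fraction from 0 to 1. Neither the listing and scoring of ORFs nor the merging of replicates is given in the sources used here. Members, lists and comparisons were chosen with earlier results of these data known. No column was left unused for lack of a sample.

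Shares, exact Clopper-Pearson intervals and ratios of shares with exact conditional counting intervals were computed with Python 3.11.15, pandas 2.3.3 and scipy 1.17.1, and the code was tested on simulated data. The planned edgeR and limma tests need values per replicate and were not run. Overlap means at least 1 nt. XUTs named were drawn from the lists that follow, and not every XUT of each list is given. They are the 12 with most pooled reads, and the 4 highest and 4 lowest ratios per comparison (4 or more reads in each of the 2). They also include the 3 highest and 3 lowest scores per condition with at least 20 reads. The last list holds those with at least 90% of pooled reads in the leading ORF. XUT0316, XUT0081, XUT1270, XUT1225, XUT1707, XUT1228, XUT0480, XUT1782, XUT0127 and XUT0497, and ratios resting on under 4 reads in a condition, were named after their values were seen. In R64 each of the 13912 ORFs off the plasmid starts with ATG and has a stop codon next to its end.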

Additional observations from a re-analysis of the deposited data

Results flagged for a closer look

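These differences went opposite ways in the 2 settings compared, and neither was tested, since each rests on 1 value per condition. The share of the leading ORF, upf1 minus WT, was 0.620 percentage points with CHX and -7.46 without it. The second value rests on ORFs chosen from the same reads. With ORFs chosen from the other 3 conditions, the share was 53.1% in upf1 and 54.9% in WT, over different sets of XUTs (87 and 104). Of the 5 XUTs with 20 reads in both, 4 had a higher share in upf1. The share of the ORFs before it differed by -0.383 points with CHX and 0.682 without, and that of the ORFs after it by -0.237 and 6.78 points. Without CHX, ORFs after the leading one held 28.6% in upf1 and 27.1% in WT where the first led. Where ORF 2 or 3 led they held 30.5% and 33.6%. The 107 XUTs' share of all XUT reads, CHX minus no CHX, was -1.80 points in upf1 and 0.531 in WT.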

How the results depend on the processing

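No paired analysis was possible because the table merges the replicates of each condition into 1 column; for the same reason no replicate could be left out. The number of XUTs stayed within 1.5-fold of 107 under 5 alternatives, including 73 when the leading ORF was picked by reads per nt and 75 among non-overlapping ORFs, and was 46 at 50 or more pooled reads. These are numbers of XUTs and do not show that the same XUTs were taken. By reads per nt, 45 of the 107 kept their leading ORF, so the 73 include other picks.

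Values below are for upf1 + CHX, upf1, WT + CHX and WT in that order. With all listed ORFs counted, the leading ORF held 42.5%, 34.8%, 42.1% and 39.3% of reads; without the 6 members on LTR or Ty elements, 53.9%, 43.6%, 53.3% and 49.1%. Choosing ORFs from the other 3 conditions moved upf1 to 53.1%. Leaving out XUT1452, an alternative chosen after seeing the data, gave 54.7% in upf1 + CHX and 53.7% in WT + CHX. The members' share of XUT reads was 17.6%, 18.2%, 17.1% and 13.3% with the plasmid in the totals, 19.2% and 21.3% in the upf1 conditions over all listed ORFs, and 18.0% in upf1 + CHX and 17.5% in WT + CHX without XUT1452. The same ORF led in 39 XUTs in upf1 and 4 in WT at 20 reads per transcript.

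Phase calls numbered 19, 12, 12 and 0 at a score of 0.5, and 15, 8, 13 and 0 for ORFs that overlap no other. No share of all ORFs is given at these limits, so these counts cannot be read as high or low. At 20 reads they were 34 of 53 (64.2%), 11 of 25 (44%), 18 of 41 (43.9%) and 1 of 3, against 68.7%, 54.6%, 59.0% and 63.6% of all ORFs. Calls of read share at 3-fold were 6 for upf1 against WT, 1 for upf1 + CHX against WT + CHX, 11 for WT + CHX against WT and 8 for upf1 + CHX against upf1. At 2-fold and 20 reads the calls were 5 for upf1 + CHX against WT + CHX and 19 for WT + CHX against WT. The 5 were 2 higher and 3 lower of 87 XUTs, beside 6.28% and 5.2% of all XUTs. The 19 were 15 higher and 4 lower of 71, beside 13.2% and 7.03% of all XUTs. With the plasmid in the totals, the median log2 ratio of the 107 was 0.12 for WT + CHX against WT, not -0.20, and 0.21 for upf1 against WT, not -0.05; for upf1 against WT it was 0.64 at 20 reads. Keeping only calls whose counts as given also pass 2-fold, chosen after seeing the data, left 33 of 37 for WT + CHX against WT and changed no other count. Score differences of 0.3 or more numbered 1, 5, 0 and 9 in upf1 against WT, upf1 + CHX against WT + CHX, WT + CHX against WT and upf1 + CHX against upf1. At this limit, too, no share of all ORFs is given. The causes of these moves were not tested, beyond the fewer ORFs that a stricter limit leaves. WT had few reads, so its values are the least precise.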
